A study of Mus musculus with 24 samples.

Results

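Transcript levels of 9 genes that respond to mechanical load were followed in the mouse plantaris, a hindlimb muscle that extends the ankle. The set holds 5 members of the CCN family of secreted matricellular proteins (Ccn1, Ccn2, Ccn3, Ccn4 and Ccn5), the 3 muscle ankyrin-repeat proteins (Ankrd1, Ankrd2 and Ankrd23) and the muscle LIM protein (Csrp3). The genes were taken by symbol out of 19937 genes measured, each through its probe set with a single gene symbol, and each of the 9 had exactly 1 such probe set. All 9 were among the 14499 genes that passed a filter on dim signal, so none was lost.

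The samples formed 4 groups of 6 biological replicates, with 1 Affymetrix whole-transcript array each: overloaded Mstn-/- muscle, untreated Mstn-/- muscle, overloaded wildtype muscle and untreated wildtype muscle. Mstn-/- mice carry a knockout of myostatin, a growth factor of the TGF-beta family that limits muscle mass. Overload was imposed at an age of 3 months by cutting out the synergist muscles, the whole soleus and most of the gastrocnemius, in both legs, and the untreated mice were not operated on. The plantaris of 1 leg was analysed per mouse. Neither the Mstn allele, nor the strain, nor the time between surgery and sampling is stated in those sources that were used here. Values are RMA intensities, given below on the linear scale, and differences are on the log2 scale.

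Mstn itself was lower in untreated Mstn-/- than in untreated wildtype muscle (log2 -1.33 ± 0.13, SE, limma adjusted p = 2.7e-08), while the overloaded groups differed by -0.15 ± 0.13 (adjusted p = 0.39), which leaves the genotype labels of the overloaded arrays without such a check. The geometric mean intensity of Mstn was 305 in overloaded and 487 in untreated Mstn-/- muscle. It was 337 in overloaded and 1221 in untreated wildtype muscle, so the mean was lower under overload in each genotype. The position of the Mstn probe set relative to the deletion is unknown here. All of 10 fast fibre and 9 slow fibre markers passed the filter on dim signal. That filter cannot tell the plantaris from another muscle, so it does not check the tissue label. The median intensity of an array was 139 to 147, and the number of arrays limits the precision. The fold changes come from whole tissue, in which fewer cells of a type and less RNA per cell cannot be told apart.

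CCN proteins are modular secreted proteins that sit in the extracellular matrix and bind integrins, growth factors and heparan sulphate chains, and several of their genes are known targets of the transcription cofactors YAP and TAZ, which work through TEAD factors when the Hippo kinases are inactive. The muscle ankyrin-repeat proteins bind the elastic I-band region of titin and can also be found in the nucleus, where they act as transcriptional cofactors. Muscle LIM protein sits at the Z-disc and is known for its part in the response of striated muscle to mechanical stress.

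The promoters of Ccn1, Ankrd1, Ankrd2 and Ankrd23 are shown because these 4 genes took different courses under overload and because their genes are linked in the literature to TEAD factors or to muscle stretch. The 250 bases before a start site were taken from RefSeq (mouse GRCm38.p6), which matched 5 of the 9 genes. Ccn2, Ccn3, Ccn4 and Ccn5 were not matched. Capitals mark the TEAD core, searched as GGAATG on both strands so that it appears as CATTCC where it lies on the other strand, and the TATA box, searched as TATAAA on both strands. These motifs did not overlap each other. Each window shown held at least 1 of them, whereas the windows not shown, those of Csrp3 and of the upstream Ankrd23 start site, held none.
Ccn1, chr3:145649986-145650235, minus strand: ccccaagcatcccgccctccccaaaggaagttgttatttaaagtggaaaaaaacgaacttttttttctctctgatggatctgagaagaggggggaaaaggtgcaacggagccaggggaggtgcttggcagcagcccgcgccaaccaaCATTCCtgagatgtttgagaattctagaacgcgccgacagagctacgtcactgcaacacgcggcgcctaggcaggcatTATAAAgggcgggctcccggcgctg
Ankrd1, chr19:36119845-36120094, minus strand: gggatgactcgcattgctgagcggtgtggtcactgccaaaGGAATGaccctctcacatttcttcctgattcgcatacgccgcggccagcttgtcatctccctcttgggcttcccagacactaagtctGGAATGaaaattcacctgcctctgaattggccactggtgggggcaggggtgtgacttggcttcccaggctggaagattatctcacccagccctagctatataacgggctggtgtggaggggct
Ankrd2, chr19:42035777-42036026, plus strand: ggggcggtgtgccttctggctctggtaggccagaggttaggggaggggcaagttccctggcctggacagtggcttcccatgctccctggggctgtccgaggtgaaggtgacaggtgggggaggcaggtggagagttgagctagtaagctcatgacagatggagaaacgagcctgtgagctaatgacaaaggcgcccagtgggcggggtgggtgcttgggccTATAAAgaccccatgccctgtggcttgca
Ankrd23, the more downstream of its start sites, chr1:36535740-36535989, minus strand: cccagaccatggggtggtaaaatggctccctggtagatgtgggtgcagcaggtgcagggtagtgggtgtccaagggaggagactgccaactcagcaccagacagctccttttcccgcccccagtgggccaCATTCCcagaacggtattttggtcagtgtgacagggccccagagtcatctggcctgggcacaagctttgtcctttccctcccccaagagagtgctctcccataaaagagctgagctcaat
The Ccn1 window held 1 TEAD core, from -103 to -98 relative to the start, and a TATA box from -25 to -20. The Ankrd1 window held 2 TEAD cores, at -210 to -205 and at -123 to -118. The downstream Ankrd23 window held 1, at -120 to -115, and its upstream start site held none. Neither the Ankrd2 window, which held a TATA box at -29 to -24, nor the windows of the 2 Csrp3 start sites held a TEAD core. Of the 32851 mouse promoter windows of the same length, 12.6% held at least 1 TEAD core, 1.02% held 2 or more, and 12.4% held a TATA box. The CArG box, the binding motif of serum response factor, was in none of these windows and in 1.47% of all. A match describes letters only, and binding was not measured.

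The 9 genes and all lists below were chosen with earlier results of these data known. The counts set beside all tested genes are therefore descriptions and not tests of a set. Overload in Mstn-/- muscle raised 7 of the 9 genes and lowered none, beside 27.1% of all tested genes called higher and 33.5% called lower by limma at an adjusted p of 0.05. Overload in wildtype muscle raised 8 and lowered 1, beside 30.3% called higher and 35.6% called lower. The median log2 change of the 9 genes was 1.10 in Mstn-/- and 1.24 in wildtype muscle, and that of all tested genes was -0.06 in each genotype. When each array was moved to a common median, 22.9% and 45.7% of all genes were called higher and lower in Mstn-/- muscle, and the same 7 member genes stayed called.

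The genotypes differed in several members. In overloaded muscle none of the 9 genes was higher and 6 were lower in Mstn-/- than in wildtype mice, beside 17.5% and 19% of all tested genes. In untreated muscle 2 were higher and 3 lower in Mstn-/-, beside 11.1% and 10.2% of all tested genes. On arrays moved to a common median the shares in untreated muscle were 12.9% and 7.23%, and 4 of the 9 genes were called in place of 5, as Ankrd2 lost its call (adjusted p = 0.063). With 1 array left out the count of 5 went as low as 2, without untreated wildtype replicate 4, where 9.44% of all tested genes were called higher and 9.28% lower. The count was 3 without untreated Mstn-/- replicate 1 or untreated wildtype replicate 5 or 6. The overload response itself differed between the genotypes for 5 of the 9, with 4 more negative (Ccn1, Ccn3, Ccn4 and Ccn5) and 1 more positive (Ankrd23) in Mstn-/- muscle, beside 8.44% and 8.92% of all tested genes. The median of the 9 genes was -0.49 for the genotype difference under overload, -0.09 for that without overload and -0.43 for the difference in response, beside -0.03, -0.01 and -0.02 for all tested genes. These 5 comparisons share arrays, so their counts are not independent of each other.

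**Figure D1:**
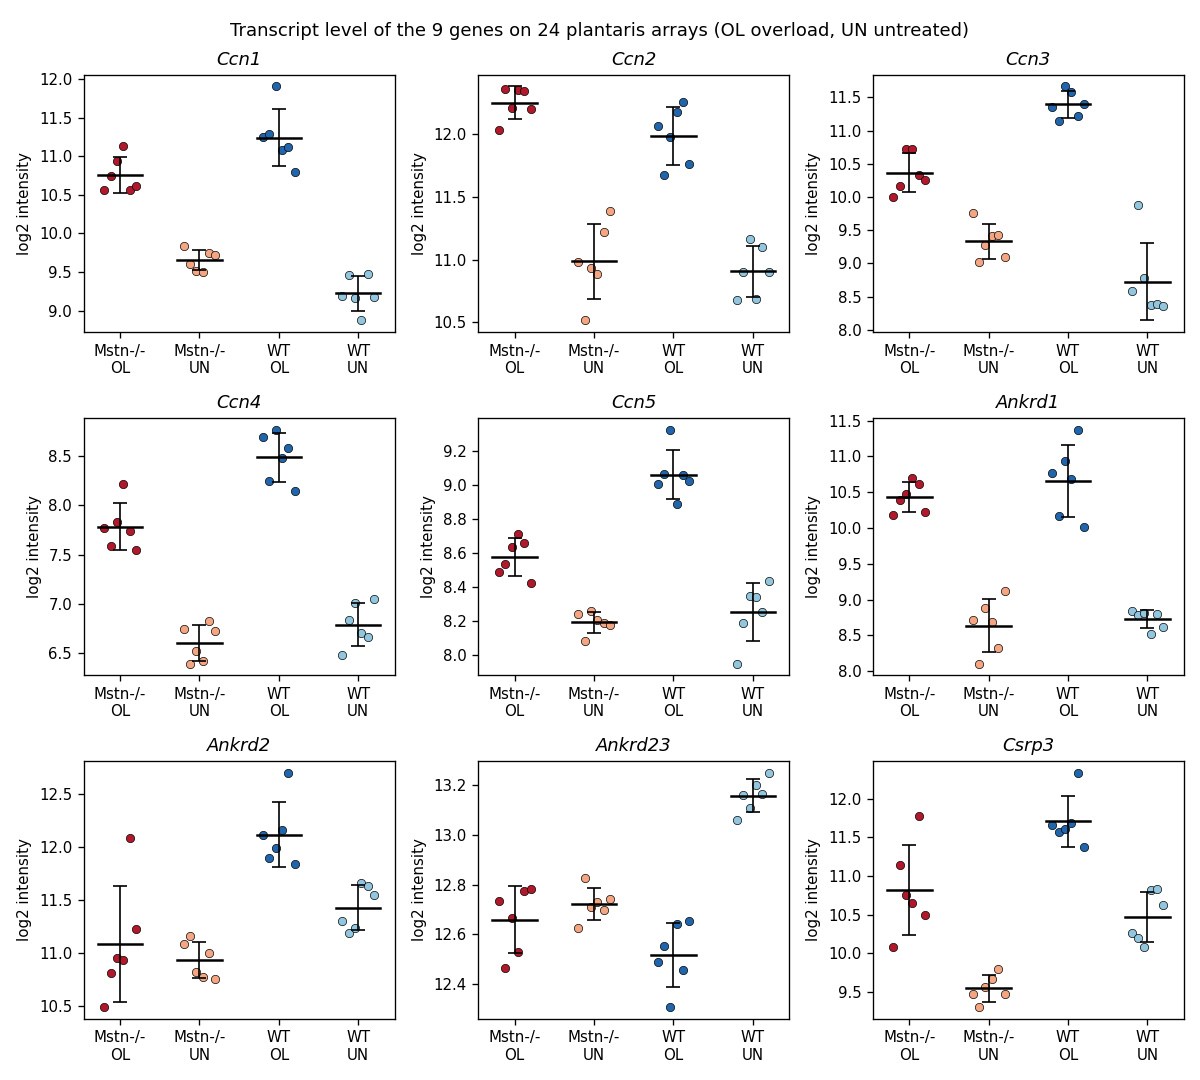
Log2 intensity of each of the 9 genes on the 24 arrays, 1 panel per gene with its own axis, in the order overloaded and untreated Mstn-/- muscle, then overloaded and untreated wildtype (WT) muscle. Points are arrays, bars are the mean and SD of 6. In Ccn1, Ccn2, Ccn3, Ccn4 and Ankrd1 every overloaded array lies above every untreated array, whereas Ankrd23 is highest in untreated wildtype muscle.

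Ccn1 encodes a matricellular protein that binds integrins and is a classic immediate target of YAP. Its intensity was 1513 to 2242 (median 1637) in overloaded and 727 to 916 (median 813) in untreated Mstn-/- muscle. It was 1771 to 3827 (median 2327) in overloaded and 469 to 714 (median 581) in untreated wildtype muscle. Every overloaded array lay above every untreated array in each genotype, and the untreated genotypes did not overlap either. Ccn1 rose 2.15-fold under overload in Mstn-/- muscle (log2 1.10 ± 0.13, SE, adjusted p = 1.0e-07) and 4.04-fold in wildtype muscle (2.01 ± 0.13, adjusted p = 1.0e-12). The response was smaller in Mstn-/- muscle, by a log2 difference of -0.91 ± 0.19 that passed the limma test (adjusted p = 0.0014). In overloaded muscle Ccn1 was 1.39-fold lower in Mstn-/- than in wildtype (log2 -0.48 ± 0.13, adjusted p = 0.0062), with overlapping arrays. In untreated muscle it was 1.35-fold higher in Mstn-/- (log2 0.43 ± 0.13, adjusted p = 0.021, or 0.062 without untreated wildtype replicate 4).

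Ccn2, also called connective tissue growth factor, encodes a matricellular protein known to promote matrix production by fibroblasts. Its intensity was 4193 to 5262 (median 4971) in overloaded and 1463 to 2679 (median 1985) in untreated Mstn-/- muscle. It was 3263 to 4887 (median 4157) in overloaded and 1637 to 2300 (median 1913) in untreated wildtype muscle. Overloaded and untreated arrays did not overlap in either genotype, and the genotypes overlapped in each condition. Ccn2 rose 2.40-fold in Mstn-/- muscle (log2 1.26 ± 0.12, adjusted p = 1.3e-09) and 2.11-fold in wildtype muscle (1.08 ± 0.12, adjusted p = 1.0e-08). The difference in response was 0.19 on the log2 scale, with a 95% interval of -0.16 to 0.53 (adjusted p = 0.50). Between genotypes Ccn2 differed by 0.27 under overload (interval 0.02 to 0.51, adjusted p = 0.080) and by 0.08 without it (interval -0.16 to 0.32, adjusted p = 0.69), and neither passed the test. The difference under overload did pass without overloaded wildtype replicate 5 (0.32, adjusted p = 0.043) and with only the overloaded groups in the fit (adjusted p = 0.043). Among the 5 CCN genes Ccn2 was the single member with a numerically larger response in Mstn-/- muscle.

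Ccn3, also called Nov, encodes a CCN protein that in several cell types opposes the matrix-promoting action of Ccn2. Its intensity was 1029 to 1684 (median 1262) in overloaded and 522 to 868 (median 651) in untreated Mstn-/- muscle. It was 2274 to 3249 (median 2668) in overloaded and 328 to 938 (median 360) in untreated wildtype muscle. The overloaded wildtype arrays lay above all others, the overloaded Mstn-/- arrays came next without overlap, and the untreated genotypes overlapped through untreated wildtype replicate 2. Ccn3 rose 2.05-fold in Mstn-/- muscle (log2 1.04 ± 0.19, adjusted p = 4.3e-05) and 6.37-fold in wildtype muscle (2.67 ± 0.19, adjusted p = 3.8e-12). The difference in response, -1.64 ± 0.27 on the log2 scale (adjusted p = 1.6e-04), ranked 10 in size among the 14499 genes tested.

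The order of the genotypes for Ccn3 depended on load. In overloaded muscle it was 2.04-fold lower in Mstn-/- (log2 -1.03 ± 0.19, adjusted p = 1.3e-04). In untreated muscle it was 1.52-fold higher in Mstn-/- (log2 0.61 ± 0.19, adjusted p = 0.023). Untreated wildtype replicate 2 read 938, against 328 to 439 on the other 5 arrays of its group. That array also had the highest sums of its group for smooth muscle and pericyte (11742), fibro-adipogenic progenitor (16674), macrophage (3625) and adipocyte markers (6300). Untreated wildtype replicate 3, with a Ccn3 reading of 439, had sums of 7671, 16051, 3356 and 6122 for the same lists. The part of these cells in the result was not tested. Without untreated wildtype replicate 2 the genotype difference in untreated muscle was 0.84 (adjusted p = 6.3e-05), the wildtype response 2.90 and the difference in response -1.87. The untreated genotype difference lost its call without untreated Mstn-/- replicate 1 (adjusted p = 0.062) or without untreated wildtype replicate 4, 5 or 6 (adjusted p = 0.060, 0.059 and 0.059), and with only the untreated groups in the fit (adjusted p = 0.055).

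Ccn4, also called Wisp1, encodes a secreted protein first described as induced by Wnt signalling. Its intensity was 187 to 298 (median 215) in overloaded and 84.2 to 113 (median 98.8) in untreated Mstn-/- muscle. It was 283 to 435 (median 369) in overloaded and 89.3 to 133 (median 109) in untreated wildtype muscle. Overloaded and untreated arrays did not overlap, while the genotypes overlapped in both conditions. Ccn4 rose 2.26-fold in Mstn-/- muscle (log2 1.18 ± 0.12, adjusted p = 4.5e-09) and 3.23-fold in wildtype muscle (1.69 ± 0.12, adjusted p = 2.8e-12). The mean of untreated Mstn-/- muscle, 97.4, was just under the filter level of 98.9, so the size of folds against that group is uncertain.

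Under overload Ccn4 was 1.63-fold lower in Mstn-/- than in wildtype muscle (log2 -0.70 ± 0.12, adjusted p = 4.6e-05). Without overload the difference was -0.19 (interval -0.43 to 0.06, adjusted p = 0.29). The difference in response was -0.52 ± 0.17 (adjusted p = 0.034), and it stayed past the threshold in 12 of the 24 fits that left out 1 array, with adjusted p up to 0.065 in the others.

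Ccn5, also called Wisp2, encodes the family member that lacks the carboxy-terminal cystine-knot module of the other CCN proteins. Its intensity was 344 to 420 (median 384) in overloaded and 271 to 306 (median 294) in untreated Mstn-/- muscle. It was 474 to 642 (median 528) in overloaded and 247 to 346 (median 315) in untreated wildtype muscle. The overloaded wildtype arrays lay above all 18 others, the overloaded and untreated Mstn-/- arrays did not overlap, and the untreated genotypes overlapped. Ccn5 rose 1.30-fold in Mstn-/- muscle (log2 0.38 ± 0.07, adjusted p = 6.2e-05) and 1.75-fold in wildtype muscle (0.81 ± 0.07, adjusted p = 2.6e-10), the smallest rise of the CCN genes in each genotype. The response differed by -0.43 ± 0.10 (adjusted p = 0.0048). Under overload Ccn5 was 1.40-fold lower in Mstn-/- muscle (log2 -0.49 ± 0.07, adjusted p = 1.0e-05), and without overload the difference was -0.06 (interval -0.21 to 0.09, adjusted p = 0.62).

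The sixth family member, Ccn6, is no member of the set and stayed near the filter level, with geometric means of 92.2 and 99.1 in overloaded and untreated Mstn-/- muscle and of 93.7 and 103 in overloaded and untreated wildtype muscle.

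**Figure D2:**
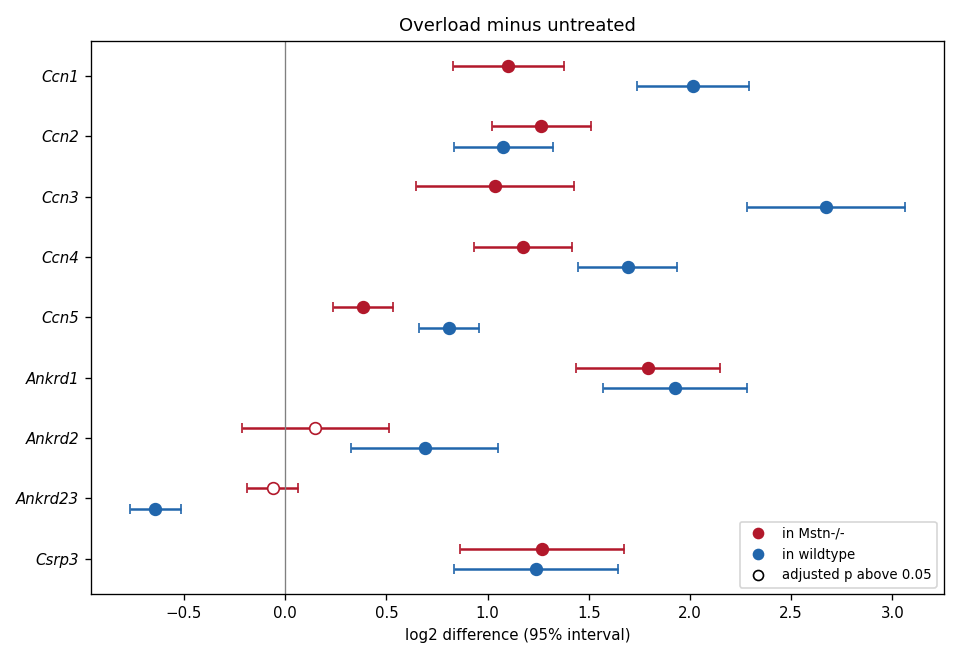
Log2 difference of overloaded minus untreated muscle for each gene, with its 95% interval from limma (n = 6 per group), in Mstn-/- muscle above and wildtype muscle below. Open circles have an adjusted p above 0.05. The wildtype response is larger for Ccn1 (2.01 against 1.10 in Mstn-/-) and Ccn3 (2.67 against 1.04 in Mstn-/-), while the intervals of Ankrd1 and Csrp3 nearly coincide.

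Ankrd1, also called cardiac ankyrin-repeat protein, is strongly induced by stretch and injury in skeletal muscle and is a known YAP target. Its intensity was 1156 to 1662 (median 1383) in overloaded and 275 to 555 (median 414) in untreated Mstn-/- muscle. It was 1035 to 2650 (median 1687) in overloaded and 367 to 461 (median 443) in untreated wildtype muscle. No untreated array reached an overloaded one, and the genotypes overlapped in both conditions. Ankrd1 rose 3.47-fold in Mstn-/- muscle (log2 1.79 ± 0.17, adjusted p = 2.2e-09), the largest rise of the 9 genes in that genotype, and 3.80-fold in wildtype muscle (1.93 ± 0.17, adjusted p = 2.8e-10). The responses differed by -0.13 (interval -0.64 to 0.37, adjusted p = 0.78). The genotypes differed by -0.22 under overload (interval -0.58 to 0.13, adjusted p = 0.33) and by -0.09 without it (interval -0.45 to 0.26, adjusted p = 0.76), so no genotype difference was detectable with these arrays.

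Ankrd2 encodes the ankyrin-repeat protein that is enriched in slow fibres and responds to stretch. Its intensity was 1442 to 4350 (median 1968) in overloaded and 1732 to 2290 (median 1930) in untreated Mstn-/- muscle. It was 3670 to 6647 (median 4253) in overloaded and 2335 to 3235 (median 2763) in untreated wildtype muscle. The wildtype conditions did not overlap and neither did the untreated genotypes, whereas overloaded and untreated Mstn-/- arrays overlapped. Overloaded Mstn-/- replicate 5 read 4350, beside 1442 to 2390 on the other 5 arrays of its group. That array was also the highest of its group for Csrp3 (3496). The slow fibre marker sum of the array was 8823, within the 7877 to 9920 of its group, and the cause of the high reading was not tested.

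Ankrd2 rose 1.61-fold in wildtype muscle (log2 0.69 ± 0.18, adjusted p = 0.0014), and in Mstn-/- muscle its change of 0.15 did not pass the test (interval -0.22 to 0.51, adjusted p = 0.48). The difference between these responses, -0.54 ± 0.25, did not pass either (adjusted p = 0.15). Of the 24 fits that left out 1 array it passed in 1, without overloaded Mstn-/- replicate 5 (-0.74, adjusted p = 0.0078). The change in Mstn-/- muscle was then -0.05. Over all 24 fits the difference was -0.74 to -0.42 (adjusted p up to 0.26), and it passed in 0 of 8 other settings. The wildtype rise was 0.57 to 0.74 with 1 array left out. Under overload Ankrd2 was 2.05-fold lower in Mstn-/- than in wildtype muscle (log2 -1.03 ± 0.18, adjusted p = 5.6e-05), and the groups overlapped through replicate 5 alone. Without overload it was 1.41-fold lower (log2 -0.50 ± 0.18, adjusted p = 0.047). That last call was lost in 8 of the 12 fits that left out 1 array (adjusted p up to 0.099), on arrays moved to a common median (0.063), with no filter (0.060) and with a trended, robust variance (0.065).

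Ankrd23, the third ankyrin-repeat protein, went the other way. Its intensity was 5658 to 7049 (median 6661) in overloaded and 6326 to 7261 (median 6749) in untreated Mstn-/- muscle. It was 5070 to 6436 (median 5874) in overloaded and 8556 to 9746 (median 9171) in untreated wildtype muscle. The untreated wildtype arrays lay above all 18 others, and the remaining 3 groups overlapped. Ankrd23 fell 1.56-fold under overload in wildtype muscle (log2 -0.64 ± 0.06, adjusted p = 7.9e-10), the sole fall among the 9 genes, and changed by -0.06 in Mstn-/- muscle (interval -0.19 to 0.06, adjusted p = 0.38). The difference in response was 0.58 ± 0.09 (adjusted p = 5.3e-05). In overloaded muscle the difference between Mstn-/- and wildtype of 0.14 (interval 0.02 to 0.27) did not pass the test (adjusted p = 0.068), although it did in 4 of 12 fits that left out 1 array, on arrays moved to a common median (0.17, adjusted p = 0.032) and with array weights (0.14, adjusted p = 0.047). In untreated muscle Ankrd23 was 1.35-fold lower in Mstn-/- (log2 -0.44 ± 0.06, adjusted p = 9.0e-06).

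Csrp3 encodes the muscle LIM protein, which is more abundant in slow than in fast fibres. Its intensity was 1084 to 3496 (median 1668) in overloaded and 634 to 891 (median 734) in untreated Mstn-/- muscle. It was 2642 to 5156 (median 3184) in overloaded and 1085 to 1814 (median 1402) in untreated wildtype muscle. Overloaded and untreated arrays did not overlap within a genotype, nor did the untreated genotypes, and the overloaded genotypes overlapped. Csrp3 rose 2.41-fold in Mstn-/- muscle (log2 1.27 ± 0.20, adjusted p = 4.6e-06) and 2.36-fold in wildtype muscle (1.24 ± 0.20, adjusted p = 4.4e-06). The responses differed by 0.03, with an interval of -0.54 to 0.61 (adjusted p = 0.96). The level was lower in Mstn-/- muscle in each condition, by 1.85-fold under overload (log2 -0.89 ± 0.20, adjusted p = 8.9e-04) and by 1.89-fold without it (log2 -0.92 ± 0.20, adjusted p = 0.0013).

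**Figure D3:**
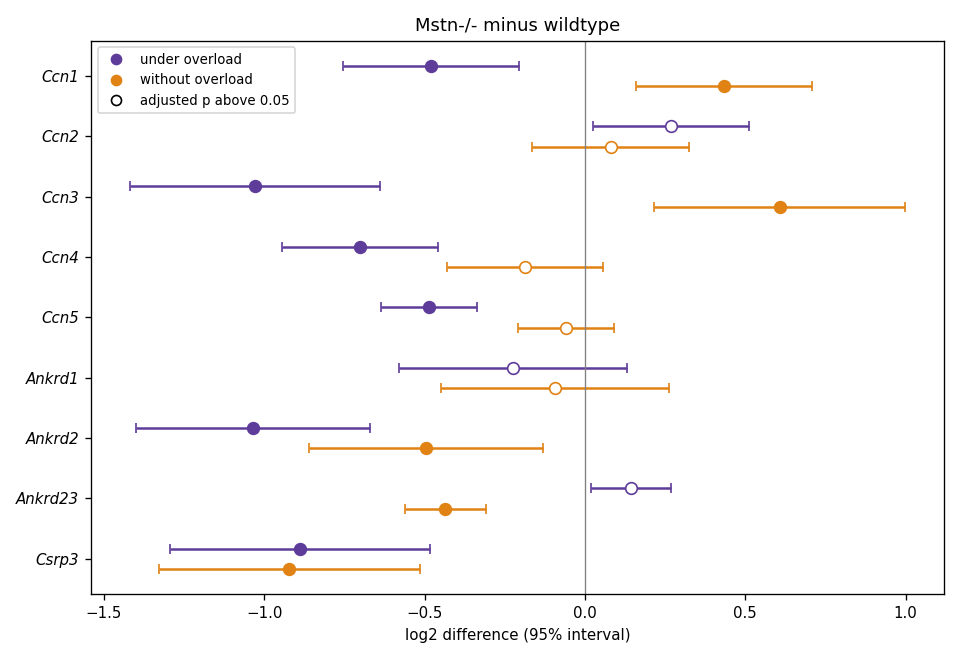
Log2 difference of Mstn-/- minus wildtype muscle for each gene with its 95% interval from limma (n = 6 per group), under overload above and without overload below. Open circles have an adjusted p above 0.05. For Ccn1 and Ccn3 the differences lie on opposite sides of 0 (-0.48 and -1.03 under overload, 0.43 and 0.61 without), whereas for Csrp3 they lie close together (-0.89 and -0.92).

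Set in order of level, the 4 groups gave different sequences for different genes. For Ccn1 and Ccn3 the order from low to high was untreated wildtype, untreated Mstn-/-, overloaded Mstn-/- and overloaded wildtype. For Ccn4, Ccn5, Ankrd1 and Csrp3 untreated Mstn-/- muscle was lowest, followed by untreated wildtype, overloaded Mstn-/- and overloaded wildtype. The neighbours that overlapped were the untreated genotypes for Ccn3, Ccn4, Ccn5 and Ankrd1 (and for Ccn2), overloaded Mstn-/- and untreated wildtype muscle for Ccn5, Csrp3 and Ankrd2, and the overloaded genotypes for Ccn1, Ccn2, Ccn4, Ankrd1, Ankrd23 and Csrp3. For Ccn2 the order was untreated wildtype, untreated Mstn-/-, overloaded wildtype and overloaded Mstn-/-. For Ankrd2 both Mstn-/- groups, which overlapped each other, lay below both wildtype groups in mean level. For Ankrd23, whose Mstn-/- groups also overlapped, the order was overloaded wildtype, overloaded Mstn-/-, untreated Mstn-/- and untreated wildtype.

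Arrays of a group did not vary alike for all members. Overloaded wildtype replicate 3 was the highest array of its group for Ccn1, Ccn3, Ccn4 and Ccn5, whereas replicate 5 was the highest for Ccn2, Ankrd1, Ankrd2 and Csrp3. Replicate 3 also had the highest sums of its group for fibro-adipogenic progenitor markers (34063), tendon markers (28956) and macrophage markers (19750), and the lowest for fast fibre markers (71960). Overloaded wildtype replicate 6 was lowest for Ccn1, Ccn4, Ankrd1, Ankrd2 and Csrp3. In Mstn-/- muscle, overloaded replicate 1 was lowest for 6 of the 9 genes and untreated replicate 2 was lowest for 6, among them Ccn2, Ccn3, Ankrd1 and Csrp3 in each case. Overloaded Mstn-/- replicate 5 was highest for Ankrd2 and Csrp3 and replicate 4 for Ccn1, Ccn4, Ccn5 and Ankrd1.

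**Figure D4:**
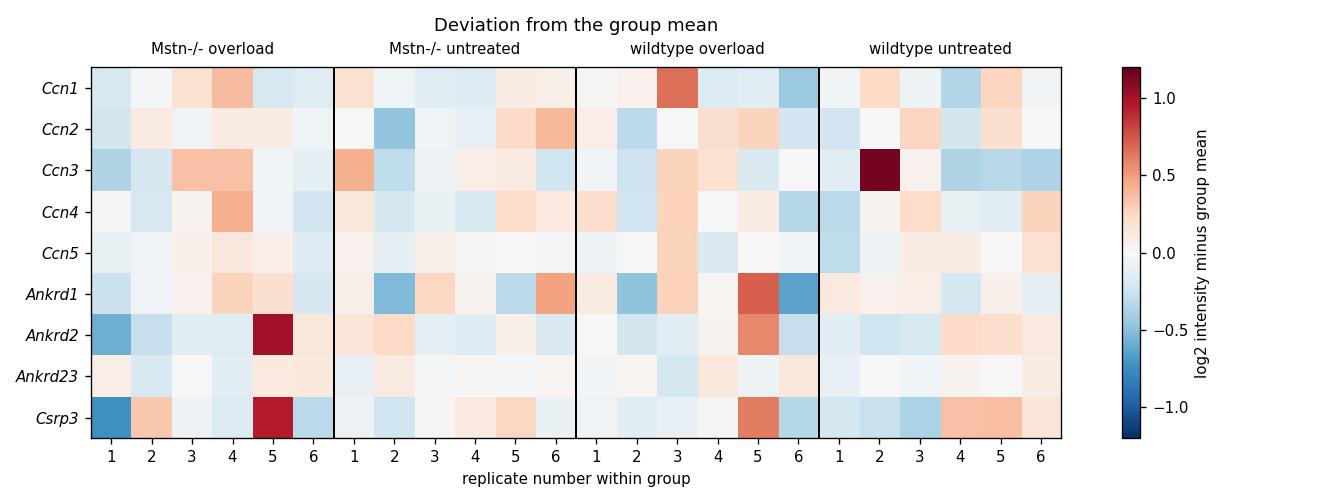
Log2 intensity minus the group mean for each gene (rows) on each of the 24 arrays (columns, by group and replicate number); red is above and blue below the mean. The darkest cells are Ccn3 on untreated wildtype replicate 2 and Ankrd2 and Csrp3 on overloaded Mstn-/- replicate 5.

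Markers of other cells moved with load and genotype, and their part in the members' changes was not tested. Under overload 27.1% of all tested genes were called higher and 33.5% lower in Mstn-/- muscle, and 30.3% and 35.6% in wildtype muscle. No marker was at 0, the lowest value of the whole table being 4.72. All 10 macrophage markers rose under overload in each genotype, with summed intensities of 9468 to 17568 in overloaded and 3826 to 5022 in untreated Mstn-/- muscle, and 13659 to 19750 in overloaded and 2622 to 3625 in untreated wildtype muscle. Of 8 fibro-adipogenic progenitor markers, 7 rose in Mstn-/- and 8 in wildtype muscle, with sums of 21580 to 26288 in overloaded and 14103 to 17553 in untreated Mstn-/- muscle, and 28251 to 34063 in overloaded and 12877 to 16674 in untreated wildtype muscle. The response of 5 macrophage and 5 progenitor markers was smaller in Mstn-/- muscle by the test, beside 8.44% of all tested genes more negative. Of the 10 macrophage markers, 4 were higher and none lower in untreated Mstn-/- than in untreated wildtype muscle, and 2 were lower and none higher under overload. Of the 8 progenitor markers, 1 was higher and none lower without overload, and 6 were lower and none higher under it. Of all tested genes, 11.1% were called higher and 10.2% lower without overload, and 17.5% and 19% under it. The counts of 2 macrophage markers lower under overload and of 1 progenitor marker higher without it were near these shares. Of 8 tendon markers, 7 rose and none fell under overload in Mstn-/- muscle, and 7 rose and 1 fell (Chad, log2 -0.42) in wildtype muscle. Of these markers, 7 were lower in Mstn-/- muscle both under and without overload, beside 19% and 10.2% of all tested genes. Their sums were 15813 to 19397 in overloaded and 6953 to 10098 in untreated Mstn-/- muscle, and 22675 to 28956 in overloaded and 7797 to 14483 in untreated wildtype muscle.

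Fibre type markers also moved with load and genotype, and their part in the changes of Ankrd2 and Csrp3 was not tested. Under overload Csrp3 rose by log2 1.27 in Mstn-/- and 1.24 in wildtype muscle. Ankrd2 rose by 0.69 in wildtype muscle, and its change of 0.15 in Mstn-/- muscle did not pass the limma test (adjusted p = 0.48). Both genes were lower in Mstn-/- muscle in each condition, Ankrd2 by log2 -1.03 under overload and -0.50 without it. That last call was kept in 4 of 12 fits that left out 1 array. Of 9 slow fibre markers, 9 were lower in Mstn-/- muscle under overload and 8 without it, beside 19% and 10.2% of all tested genes. Under overload 6 rose and none fell in Mstn-/- muscle, and 7 rose and 1 fell (Myl3, log2 -0.96) in wildtype muscle. Their sums were 7877 to 9920 in overloaded and 3321 to 4392 in untreated Mstn-/- muscle, and 16625 to 25075 in overloaded and 9156 to 14405 in untreated wildtype muscle. The sums of 10 fast fibre markers were 99479 to 106369 in overloaded and 103727 to 111382 in untreated Mstn-/- muscle, and 71960 to 90070 in overloaded and 104036 to 105910 in untreated wildtype muscle. Of these markers, 2 rose and 5 fell under overload in Mstn-/- muscle, and none rose and 6 fell in wildtype muscle. The overload response was more positive in Mstn-/- muscle for 5 of the 10 fast fibre and 3 of the 9 slow fibre markers, and more negative for none of either list. Of all tested genes, 8.92% were called more positive and 8.44% more negative.

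The Hippo pathway controls YAP and TAZ. Of its 21 tested genes, 9 rose and 5 fell under overload in Mstn-/- muscle, beside 27.1% and 33.5% of all tested genes, and 11 rose and 5 fell in wildtype muscle, beside 30.3% and 35.6%. The median log2 changes were 0.09 and 0.14, beside -0.06 for all tested genes in each genotype. The genes named from this and the following lists had the largest called changes in wildtype overload, so a difference in response in the opposite direction is favoured by that choice. Mob1a, a cofactor of the LATS kinases, rose 1.97-fold in Mstn-/- and 2.31-fold in wildtype muscle (log2 0.98 ± 0.09 and 1.21 ± 0.09, limma adjusted p = 1.1e-09 and 1.0e-11). The TEAD cofactor gene Vgll3 rose by 0.50 in Mstn-/- and 0.98 in wildtype muscle, a difference of -0.48 (adjusted p = 0.013). Nf2, which encodes the upstream regulator merlin, fell by 0.61 in each genotype. Vgll2 rose by 0.37 in Mstn-/- muscle but fell by 0.51 in wildtype muscle (difference in response 0.88 ± 0.15, adjusted p = 2.3e-04).

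The cofactors themselves, named here after their values were seen, differed too. Wwtr1, which encodes TAZ, rose by 0.21 in Mstn-/- and by 0.88 in wildtype muscle (adjusted p = 8.1e-04 and 7.1e-14), a difference of -0.67 (adjusted p = 7.9e-07). Yap1 fell by 0.25 in Mstn-/- and rose by 0.14 in wildtype muscle (adjusted p = 5.4e-05 and 0.010), a difference of -0.40 (adjusted p = 2.1e-04). These are transcript levels, and the activity of YAP and TAZ was not measured.

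Of 18 tested YAP and TAZ target genes of a published cancer signature, counted without Ccn1, Ccn2 and Ankrd1, 12 rose and 1 fell under overload in each genotype. Of all tested genes, 27.1% were called higher and 33.5% lower in Mstn-/- muscle, and 30.3% and 35.6% in wildtype muscle. The medians of the list were 0.27 in Mstn-/- and 0.44 in wildtype muscle. Ccdc80, a secreted matrix protein gene, rose 6.47-fold in Mstn-/- and 5.85-fold in wildtype muscle. Myof, which encodes the membrane repair protein myoferlin, rose 2.96-fold in Mstn-/- and 4.75-fold in wildtype muscle, a difference in response of -0.68 ± 0.14 (adjusted p = 0.0015). Crim1, which encodes a transmembrane protein that binds bone morphogenetic proteins, fell by 0.84 in wildtype muscle, and its change of -0.11 in Mstn-/- muscle did not pass the test (adjusted p = 0.14). Under overload 9 of these genes were lower and 2 higher in Mstn-/- than in wildtype muscle, beside the 19% and 17.5% of all tested genes.

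The receptors and partners of CCN proteins rose broadly. Of 18 tested, 14 rose and none fell in Mstn-/- muscle, beside 27.1% and 33.5% of all tested genes. In wildtype muscle 15 rose and none fell, beside 30.3% and 35.6%. The medians were 0.39 and 0.60. Fn1, the gene of fibronectin, rose 4.49-fold in Mstn-/- and 6.13-fold in wildtype muscle (log2 2.17 ± 0.11 and 2.62 ± 0.11), and its difference in response of -0.45 had an adjusted p of 0.052. Itga5, which encodes the alpha subunit of the fibronectin receptor, rose 2.03-fold in Mstn-/- and 3.25-fold in wildtype muscle, a difference in response of -0.68 ± 0.13 (adjusted p = 6.3e-04). The overload response was smaller in Mstn-/- muscle for 8 of the 18 and larger for 1, beside 8.44% and 8.92% of all tested genes. Itgam and Itgb2, which together encode a leukocyte integrin and are named here after their values were seen, rose by 1.07 and 1.01 in Mstn-/- and by 1.70 and 1.64 in wildtype muscle. Under overload 15 of the 18 were lower in Mstn-/- than in wildtype muscle and 1 was higher, beside 19% and 17.5% of all tested genes.

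The list of titin and Z-disc genes around the ankyrin-repeat and LIM proteins had shares near those of all tested genes in Mstn-/- muscle. Of 33 tested, 8 rose and 11 fell in Mstn-/- muscle, beside 27.1% and 33.5% of all tested genes, and 11 rose and 15 fell in wildtype muscle, beside 30.3% and 35.6%. The medians were -0.07 and -0.11, beside -0.06 for all tested genes in each genotype. Csrp2, the relative of Csrp3 known from smooth muscle and embryonic tissue, rose 4.56-fold in Mstn-/- and 5.70-fold in wildtype muscle. Fhl2, which encodes a LIM-only protein that binds titin, rose 1.90-fold in Mstn-/- and 2.42-fold in wildtype muscle, with a difference in response of -0.35 ± 0.12 (adjusted p = 0.036). Trim63, the ubiquitin ligase of muscle atrophy at the titin M-line, fell by 1.34 in Mstn-/- and by 1.09 in wildtype muscle. Tcap, the titin cap at the Z-disc and a binding partner of Csrp3, fell by 1.01 in wildtype muscle, and in Mstn-/- muscle it changed by -0.02 (adjusted p = 0.85), so the responses differed by 0.99 ± 0.14 (adjusted p = 2.9e-05). Of the 33, 8 had a more positive and 2 a more negative response in Mstn-/- muscle, beside 8.92% and 8.44% of all tested genes.

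Serum response factor and its MRTF cofactors form a second load-sensitive route that also acts on cytoskeletal genes. Of 19 tested genes of this group, 14 rose and 1 fell in Mstn-/- muscle, beside 27.1% and 33.5% of all tested genes. In wildtype muscle 13 rose and 2 fell, beside 30.3% and 35.6%. The medians were 0.70 and 0.89. The list shares 3 genes (Acta2, Cnn1 and Tagln) with the smooth muscle and pericyte markers. Cnn2, a calponin gene, rose 3.39-fold in Mstn-/- and 3.64-fold in wildtype muscle, and Flna, the gene of filamin A, rose 2.79-fold in Mstn-/- and 3.01-fold in wildtype muscle. Srf itself fell by 0.29 in Mstn-/- and by 0.40 in wildtype muscle (adjusted p = 1.5e-05 and 5.8e-08). Mrtfb fell by 0.14 in wildtype muscle (adjusted p = 0.031) and changed by -0.06 in Mstn-/- muscle (adjusted p = 0.36). The other cofactor gene, Mrtfa, named here after its values were seen, rose by 0.67 in Mstn-/- muscle (adjusted p = 1.2e-08). In wildtype muscle it changed by 0.055 (adjusted p = 0.50), a difference in response of 0.61 (adjusted p = 1.6e-04). Without overload Mrtfa was lower in Mstn-/- muscle (log2 -0.59, adjusted p = 1.0e-06). The response differed between genotypes for 2 of the 19 genes, 1 in each direction, beside 8.92% of all tested genes more positive and 8.44% more negative.

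**Figure D5:**
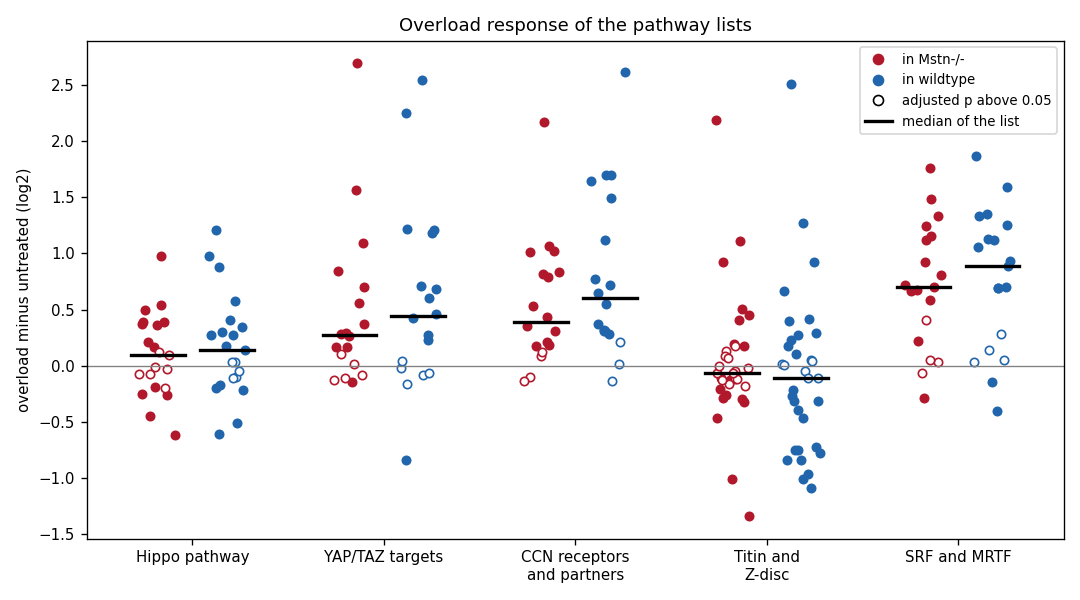
Log2 difference of overloaded minus untreated muscle for each tested gene of 5 lists (points), in Mstn-/- muscle on the left and wildtype muscle on the right of each list, with the median of the list as a bar. Open circles have an adjusted p above 0.05. The CCN receptors and partners lie mostly above 0 (medians 0.39 in Mstn-/- and 0.60 in wildtype), and the titin and Z-disc genes lie on both sides (medians -0.07 and -0.11).

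For each member the 3 genes with the nearest profile were found among 13819 tested genes, by the root mean square difference of centred log2 values over the 24 arrays, as a description without a test. Ccn1 lay nearest to Ppic, which encodes a cyclophilin (0.19), then Dse and Sulf1. Ccn2 lay nearest to the small GTPase gene Rhoc (0.18), then Zswim6 and Kcnk6. Ccn3 lay nearest to the gelatinase gene Mmp2 (0.34), then Myof and Anpep. Ccn4 lay nearest to Cercam (0.14), then to Serpinh1, the collagen chaperone gene, and Mrc2, a collagen receptor gene. Ccn5 lay nearest to the elastic fibre gene Emilin1 (0.09), then Myo7a and Camk4.

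Among the muscle genes, Ankrd1 lay nearest to Dennd4a (0.25), then Svep1 and Myof. Ankrd2 lay nearest to Xirp1, which encodes an actin-binding protein of muscle repair (0.25), then Lmcd1 and Hspb7. Ankrd23 lay nearest to Hadh, an enzyme gene of mitochondrial fatty acid oxidation (0.11), then Dele1 and the mitochondrial carrier gene Slc25a11. Csrp3 lay nearest to Myom3, an M-band gene (0.34), then to Casq2, the calsequestrin gene of cardiac and slow muscle and 1 of the 9 slow fibre markers, and Wdr1. On arrays moved to a common median all 27 of these nearest genes were found again.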

How the data were processed

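RNA of 24 plantaris muscles (4 groups of 6) was hybridised to Affymetrix whole-transcript arrays after removal of ribosomal RNA from 1000 ng of total RNA, per the labels' protocols. The deposited values are intensities per probe set on a linear scale (4.72 to 25589), summarised by the authors with RMA (version not given), per the submitters' processing notes. RMA can understate changes of dim genes.

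Of 34760 probe sets, 21640 carry exactly 1 gene symbol (1321 several, 11799 none in the annotation used) and 21553 of these matched RefSeq GRCm38.p6 names. Per gene the probe set with the highest mean was kept, giving 19937 genes. A gene was tested where at least 1 group mean exceeded the 30th percentile (intensity 98.9), leaving 14499. With limma 3.58.1 in R 4.3.3, log2 intensities without a pseudocount were fitted with 1 mean per group over all arrays, then moderated with eBayes, and p-values were adjusted by Benjamini-Hochberg across all tested genes (threshold 0.05). The fit was tested on simulated data. At most 0.0201% of values were identical between any 2 arrays.

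The members and all lists were chosen with earlier results of these data known. Genes named beside the members follow a rule: Mstn, up to 2 highest and 2 lowest called genes per pathway list in wildtype overload, and 3 nearest profiles per member, leaving out predicted gene models. Two-sided tests and 95% intervals are given throughout. Alternatives were quantile normalization, arrays shifted to the same median, no or a stricter filter (50th percentile), the mean of all probe sets, a trended and robust variance, array weights, a block for the replicate number, the compared groups alone and leaving out each array in turn. Probe sets with several or no symbols were left out.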

Additional observations from a re-analysis of the deposited data

Results flagged for a closer look

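The overload response differed between the genotypes, by the limma interaction test given as Mstn-/- minus wildtype on the log2 scale, for 5 of the 9 genes: -0.91 for Ccn1, -1.64 for Ccn3, -0.52 for Ccn4, -0.43 for Ccn5 and 0.58 for Ankrd23. Of all tested genes, 8.92% were called more positive and 8.44% more negative. The call of Ccn4 was kept in 12 of the 24 fits that left out 1 array (adjusted p up to 0.065). The pathway genes named beside the members were picked for the largest rises and falls in wildtype overload, which is a term of this difference in response, so the choice favours a negative difference for those that rose and a positive one for those that fell. Among them the response was more negative in Mstn-/- muscle for Vgll3 (-0.48), Myof (-0.68), Itga5 (-0.68) and Fhl2 (-0.35). It was more positive for Vgll2 (0.88), Crim1 (0.73) and Tcap (0.99). For Mstn, the targeted gene, the difference was 1.18, as its mean fell under overload in both genotypes and fell further in wildtype muscle.

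Single arrays stood apart from the other 5 of their group in 9 of 108 gene and group combinations examined, by Dixon's test of the gap against the group's range (log2 intensity), and chance marks about 1 in 20 groups. Among the members these were Ccn3 on untreated wildtype replicate 2, the highest at 9.87, and Ankrd2 (12.70) and Csrp3 (12.33) on overloaded wildtype replicate 5, the highest of their group. Among the other genes the lowest arrays that stood apart were Csrp2 on untreated Mstn-/- replicate 2 (7.19), Vgll2 (9.60) and Trim63 (8.63) on overloaded wildtype replicate 3, and Crim1 on untreated wildtype replicate 6 (10.02). The highest were Srf on untreated Mstn-/- replicate 1 (9.98) and Flna on untreated wildtype replicate 2 (10.11). Untreated wildtype replicate 2 and overloaded wildtype replicates 3 and 5 each appear for 2 genes.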

How the results depend on the processing

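The member counts for overload were 7 in Mstn-/- and 9 in wildtype muscle under each alternative run. The shares of all genes called higher and lower moved with the setting. For overload in Mstn-/- muscle they were 20.6% and 30.1% with no filter, and 31.8% and 35.6% with the stricter filter. For wildtype muscle they were 23.3% and 31.7%, and 35.1% and 39%. The count for Mstn-/- against wildtype without overload, 5 with all arrays, was 2 to 5 with 1 array left out: 3 without untreated Mstn-/- replicate 1 and 2, 3 and 3 without untreated wildtype replicates 4, 5 and 6. Under overload it was 6 to 7, and for the difference in response 4 to 5. Between genotypes under overload, 12.4% of all genes were called higher and 13.2% lower with no filter, and 23.3% and 23.1% with the stricter filter. Without overload these shares were 7.47% and 6.92%, and 15.1% and 13.2%. For the difference in response they were 5.72% and 5.35%, and 12.4% and 11.4%. Differences near 0 changed sign with 1 array left out: Ankrd2 overload in Mstn-/- muscle (-0.0515 to 0.27), Ccn2 (-0.0007 to 0.17) and Ankrd1 (-0.19 to 0.0134) between untreated genotypes, the difference in response of Ankrd1 (-0.26 to 0.0113) and of Csrp3 (-0.16 to 0.18), and Tcap overload in Mstn-/- muscle (-0.0774 to 0.0273), which was also 0.0299 after quantile normalization. The cause was not tested. Of the members' differences refitted with 1 array left out, 607 kept direction and side of the threshold, 25 lost and 6 gained a call, and 10 changed sign. Under the other settings 389 kept both, 4 lost and 3 gained a call. Samples with the same replicate number did not deviate together (correlations of -0.29 to 0.18 over 36 pairs, 3 of them over 0.1, and 0 arrays closest to their own number in each other group), so the numbers were not taken as pairing. With the replicate block the counts were 7 in Mstn-/- and 9 in wildtype overload, 6 and 5 between genotypes under and without overload, and 5 for the difference in response. In the same order, the shares of all tested genes called higher and lower were 26.9% and 33%, 30.2% and 35.4%, 17.3% and 18.7%, 10.7% and 10%, and 8.6% and 8.23%. No other background correction was run, since the values are already RMA summaries. Low signal limits Ccn4 in untreated muscle.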

Other observations

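Markers of further cell types were counted with the same limma test. Of all tested genes, 27.1% were called higher and 33.5% lower under overload in Mstn-/- muscle, and 30.3% and 35.6% in wildtype muscle. Of 9 endothelial markers, 7 rose and 1 fell under overload in each genotype. Of 9 smooth muscle and pericyte markers, 6 rose and 1 fell in Mstn-/- muscle and 5 rose and 1 fell in wildtype muscle. Of 6 satellite cell markers, 4 rose and 1 fell in Mstn-/- muscle and 2 rose and 1 fell in wildtype muscle. Of 6 adipocyte markers, 1 rose in Mstn-/- muscle and 2 fell in wildtype muscle, and none of the 3 tested Schwann cell and nerve markers passed the test in any of the 5 comparisons.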
